A study of Saccharomyces cerevisiae with 3 samples.

Results

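The proteasome is the large protease that degrades ubiquitin-tagged proteins in the cytosol and nucleus of yeast. It has a barrel-shaped core particle, built of an outer alpha ring and an inner beta ring on each side, with the cutting sites on certain beta subunits. A regulatory particle caps the barrel: its base holds a ring of ATPases that unfold the substrate, and its lid removes the ubiquitin chain. Most subunits are encoded by a single gene and are needed in fixed proportions, and the transcription factor Rpn4 drives their genes together.

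The genes described here were 34 proteasome genes chosen by symbol, of 5574 genes on the platform. They comprised 14 core particle genes, 18 regulatory particle genes, the transcription factor gene RPN4 and RPN14, which encodes an assembly chaperone of the base. All 34 were found on the array by their current symbol, 31 with 1 spot and 3 (PRE2, RPN1 and RPN7) with 2 spots. G0 and Y5 gave a value for all 34 and Y10 for 30. PRE3, RPN2, RPN10 and RPT1 had none on Y10.

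The study concerned the response of budding yeast to a fast move from a fermentable carbon source to one that is not. The 3 samples, G0, Y5 and Y10, were each hybridised to 1 two-colour array that set polysome RNA (Cy5, labelled Poly) against RNA of free messenger ribonucleoprotein particles (Cy3, labelled mRNP). G0 is taken here as the state before the move and Y5 and Y10 as successive states after it, although the labels give no unit for the numbers, no strain and no medium. Each group was 1 array, so no test between arrays could be made and no p-value is given.

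Polysomes are mRNAs carrying several ribosomes, and an mRNA in the mRNP fraction carries few or none. A level below is the log2 ratio of the 2 fractions of 1 sample for 1 gene, relative to the median spot of that array. A positive level is read as relatively more of that mRNA in polysomes. That direction is likely rather than stated: it follows from the dyes on the labels and the usual red-over-green order, while the sample titles name mRNP before Poly. GCN4, an mRNA known to be held back from translation in well-fed yeast, lay at percentile 5.89 of genes on G0, 96.7 on Y5 and 30.2 on Y10. A low level on G0 is what that direction gives for it, and the order of the samples is itself read from their names. With the opposite direction every sign below would turn. A log2 unit of 1, a 2-fold difference in the ratio, was the size used to count differences. A shift of all mRNAs together is not visible in such values.

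Depth is unknown, since no channel intensities were used. The only error the data hold is that between the 2 spots of a gene, which gave an SD for a level of 0.453 (G0, 882 genes), 0.402 (Y5, 886 genes) or 0.436 (Y10, 453 genes). Taken over the difference between a pair of arrays, it was 0.452 (Y5 minus G0), 0.632 (Y10 minus G0) or 0.559 (Y10 minus Y5). It covers neither cultures nor hybridisations. Y10 values rest on row numbers inferred from the data, under which Y10 and Y5 correlated across spots at r = 0.463 (5971 spots), against 0.0155 by the deposited row numbers. Y10 levels were also more compressed, with an SD over genes of 0.597, against 0.692 on Y5 and 0.698 on G0.

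Most proteasome mRNAs lay on the polysome side of the array median on G0. Of the 34 genes, 27 were above it, whereas 50.3% of all genes were. The median level of the 34 was 0.55, that of all genes 0.01. On Y5, 12 of the 34 were above the array median (47.2% of all genes), and the median level was −0.26. On Y10, 9 of 30 were above it (49.8% of all genes), with a median of −0.23. The genes did not move as a block. Of the 30 genes with 3 values, 7 were above the median on every array, 23.3%, which is also the 23.3% found over all genes. These were PRE2 of the core and RPT2, RPT3, RPT4, RPT5, RPN1 and RPN7 of the regulatory particle. Another 13 of the 30 were above it on G0 and below it on both Y5 and Y10, where 12.9% of all genes were, and 9 of those 13 belonged to the core.

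**Figure D1:**
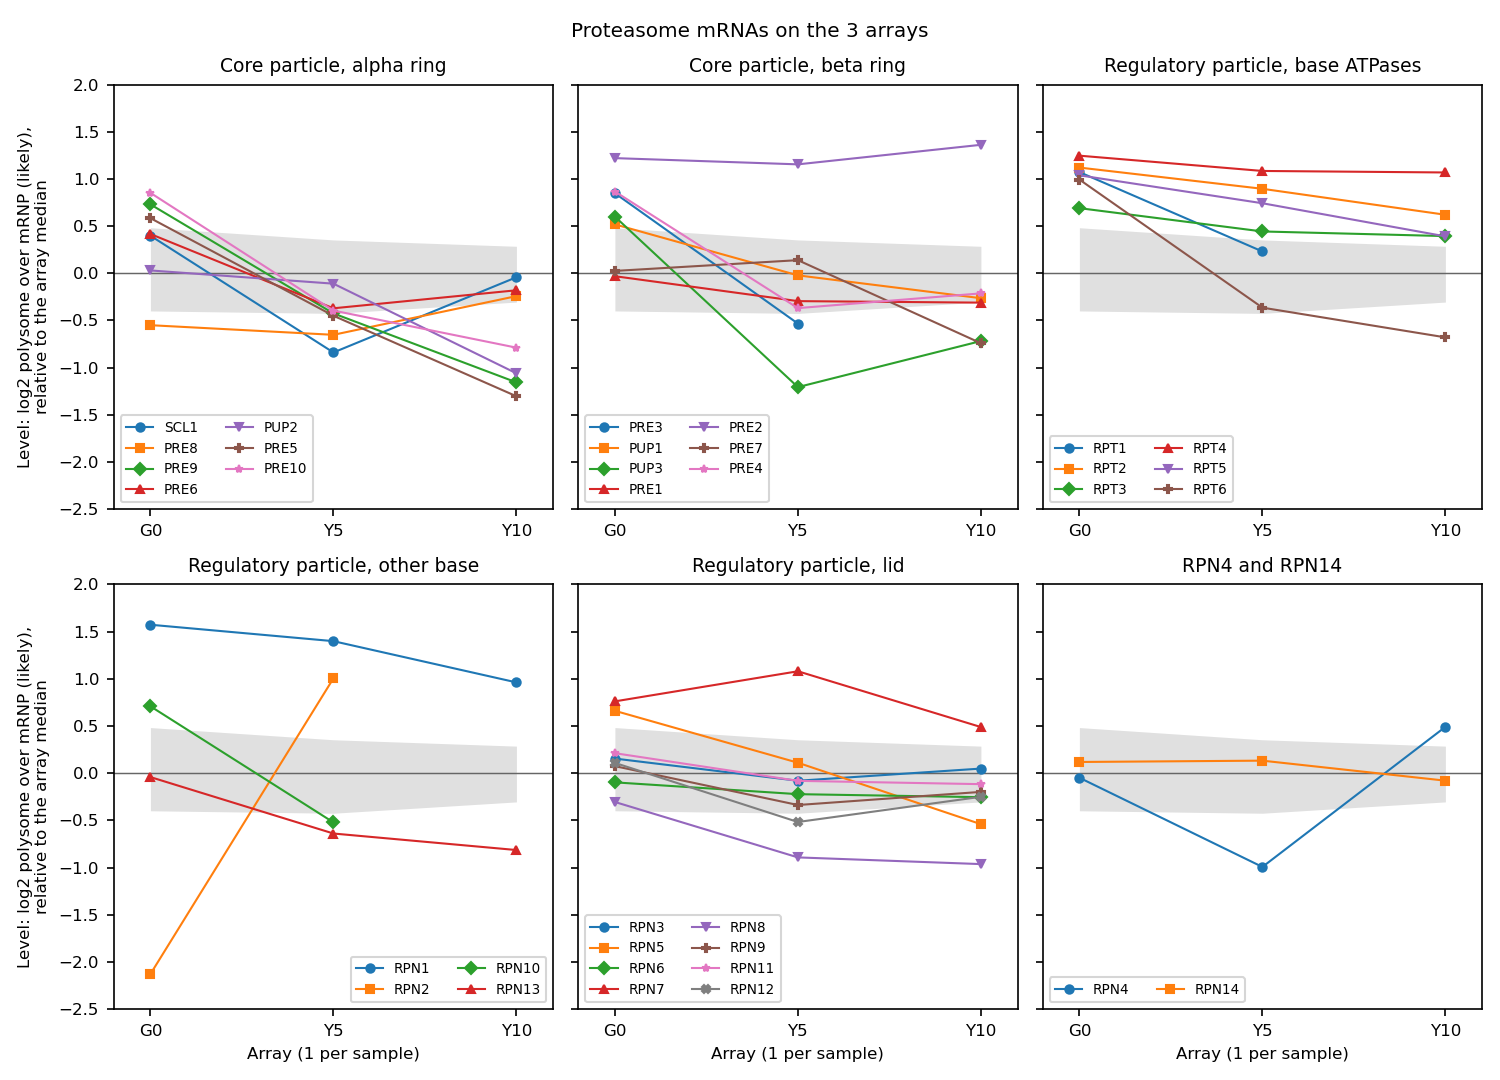
Level of each proteasome gene (log2 polysome over mRNP, relative to the array median) on the G0, Y5 and Y10 arrays, by subcomplex. Lines join the values of 1 gene, and the grey band is the quartile range of all genes on each array. No alpha ring gene lies above 0 on Y5 or Y10 (without centring 1 of 7 does on Y10), whereas RPT2, RPT3, RPT4, RPT5, PRE2, RPN1 and RPN7 stay above it on every array. Of all genes in the length range of the core genes, 28.0% lie above 0 on Y5 and 35.8% on Y10.

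In the alpha ring, whose subunits form the gated entrance of the barrel, 6 of 7 genes were above the array median on G0 and 0 of 7 on Y5 or on Y10. Over all genes the shares were 50.3% (G0), 47.2% (Y5) and 49.8% (Y10). Among all genes in the length range of the core genes, 597 to 867 bases, they were lower, at 39.5%, 28.0% and 35.8%. The range on G0 was −0.55 to 0.85, with a median of 0.42. The range on Y5 was −0.84 to −0.11, with a median of −0.43, and on Y10 it was −1.30 to −0.04, with a median of −0.79. Without centring of the arrays 1 of 7 alpha ring genes was above 0 on Y10, and with a line on gene length 1 of 7 on Y5 and 1 of 7 on Y10. With sector centring the counts on Y5 and Y10 were still 0 of 7. Sector centring sets the median of each printed sector of the array to 0. Scaling and quantile normalization also gave 0 of 7, but are little or no check. Scaling cannot move a gene across 0, and quantile normalization keeps the order of genes on an array.

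PRE9, which encodes the alpha 3 subunit and is the core subunit gene that yeast can live without, lay at 0.73 on G0, −0.43 on Y5 and −1.16 on Y10. PRE5, encoding alpha 6, lay at 0.58 on G0, −0.45 on Y5 and −1.30 on Y10. PRE10, encoding alpha 7, lay at 0.85 on G0, −0.40 on Y5 and −0.79 on Y10. With each array centred on its median, these 3 genes shared an order, highest on G0 and lowest on Y10. Their differences from G0 were −1.15, −1.03 and −1.25 on Y5 and −1.89, −1.89 and −1.64 on Y10, in the order PRE9, PRE5, PRE10. Sector centring put PRE10 at −0.56 on Y5 and −0.49 on Y10, which turned its order. Y10 minus Y5 was then −0.43 (PRE9), −0.40 (PRE5) and 0.06 (PRE10), each within the 0.559 between repeat spots.

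SCL1, encoding alpha 1, was lowest on Y5 instead, at 0.40 on G0, −0.84 on Y5 and −0.04 on Y10. It stood 0.80 higher on Y10 than on Y5, the highest such difference among core genes. PRE6, encoding alpha 4, followed the same order with smaller steps, at 0.42 on G0, −0.37 on Y5 and −0.18 on Y10. PUP2, encoding alpha 5, was near the median on both G0 (0.03) and Y5 (−0.11) and low only on Y10 (−1.06). Sector centring put PUP2 at 0.37 on G0, −0.09 on Y5 and −0.57 on Y10. PRE8, encoding alpha 2, was the exception on G0. It lay at −0.55 on G0, −0.65 on Y5 and −0.24 on Y10, below the median throughout.

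In the beta ring, 6 of 7 genes were above the median on G0, 2 of 7 on Y5 and 1 of 6 on Y10. The shares among all genes in the length range of the core genes were 39.5%, 28.0% and 35.8%. PRE2, encoding beta 5, which carries the chymotrypsin-like site, lay at 1.22 on G0, 1.15 on Y5 and 1.36 on Y10. It was the highest core gene on each array, at percentiles 94.3, 95.3 and 98.7 of all genes. Its 2 spots agreed, with 1.19 and 1.25 on G0 and 1.22 and 1.09 on Y5, and the 1 spot used on Y10 gave 1.36.

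The other catalytic genes did not share this course. PUP1, encoding beta 2 with the trypsin-like site, lay at 0.52 on G0, −0.02 on Y5 and −0.26 on Y10. PRE3, encoding beta 1 with the caspase-like site, lay at 0.85 on G0 and −0.53 on Y5. The 3 catalytic genes therefore ranged from 0.52 to 1.22 on G0 and from −0.53 to 1.15 on Y5.

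Among the beta genes without a cutting site, PUP3 (beta 3) lay at 0.60 on G0, −1.21 on Y5 and −0.72 on Y10. Its difference of −1.81 for Y5 minus G0 was the lowest of the 34 genes. PRE4 (beta 7) lay at 0.87 on G0, −0.37 on Y5 and −0.21 on Y10. PRE7 (beta 6) was near the median on G0 (0.03) and Y5 (0.14) and at −0.74 on Y10, like PUP2 in the alpha ring. Sector centring put PRE7 at 0.37 on G0, 0.16 on Y5 and −0.25 on Y10. PRE1 (beta 4) was slightly below the median on each array, at −0.03 on G0, −0.30 on Y5 and −0.31 on Y10.

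In the regulatory particle, the 6 RPT genes, which encode the ATPases of the base, formed the tightest group on G0. Their levels there ran from 0.69 to 1.25 with an SD over genes of 0.19, below the SD between repeat spots. All 6 were above the median on G0, 5 of 6 on Y5 and 4 of 5 on Y10. The shares among all genes in the length range of the RPT genes were 50.1%, 52.9% and 51.5%. RPT4 was the steadiest of the ring, at 1.25 on G0, 1.08 on Y5 and 1.07 on Y10. RPT2 lay at 1.12 on G0, 0.90 on Y5 and 0.62 on Y10. RPT5 had levels of 1.04 on G0, 0.74 on Y5 and 0.39 on Y10. RPT3 had 0.69, 0.44 and 0.39 on the same arrays. Each of these 4 stayed above the median on all 3 arrays.

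RPT6 differed from this group. It lay at 0.99 on G0, −0.36 on Y5 and −0.68 on Y10. Its differences from G0 were −1.36 on Y5 and −1.67 on Y10, where the 4 ATPase genes above differed by −0.30 to −0.16 on Y5 and by −0.65 to −0.18 on Y10. RPT6 was measured by 1 spot, and so were the other RPT genes, so a faulty spot could not be checked against a second. RPT1 lay at 1.07 on G0 and 0.23 on Y5. It took a Y10 level of 0.35 when the less surely placed last 60 rows of each Y10 sector were added.

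Of the base scaffold genes, RPN1 was the highest of the 34 on G0 (1.57) and Y5 (1.40) and lay at 0.96 on Y10. Its 2 spots were close on G0 (1.70 and 1.44) and Y5 (1.45 and 1.34) and apart on Y10 (0.58 and 1.35). RPN2, the other scaffold of similar size, was the lowest of the 34 on G0 at −2.13, percentile 0.16 of all genes. On Y5 it lay at 1.004, percentile 93.5. Its Y5 minus G0 difference of 3.13 was the only one at or above 1 among the 34 (4.02% of all genes) and rested on a single spot. Of the ubiquitin receptor genes of the base, RPN10 lay at 0.71 on G0 and −0.52 on Y5, and RPN13 at −0.04 on G0, −0.64 on Y5 and −0.82 on Y10.

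Lid genes stayed closer to the median than the ATPase genes. On G0 their median was 0.13 with 6 of 8 genes above 0. On Y5 it was −0.15 and on Y10 −0.23, each with 2 of 8 above 0. The shares over all genes were 50.3% (G0), 47.2% (Y5) and 49.8% (Y10). RPN11, which encodes the deubiquitinase of the lid, lay at 0.21 on G0, −0.08 on Y5 and −0.12 on Y10. With sector centring RPN11 on Y10 was 0.37. RPN3, RPN6, RPN9 and RPN12 had levels within −0.52 to 0.15 on all 3 arrays, and their differences from G0 lay between −0.63 and −0.11. For 3 of these 4, both differences from G0 were within the SD between repeat spots, the exception being RPN12 on Y5 (−0.63).

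The remaining lid genes ran apart. RPN7, a structural lid subunit, lay at 0.76 on G0, 1.08 on Y5 and 0.49 on Y10. Its 2 spots gave 0.56 and 0.96 on G0 and 1.04 and 1.12 on Y5. Only the first had a Y10 value, and for that spot Y10 minus G0 was −0.07. RPN8, the partner of RPN11 in the lid, lay at −0.31 on G0, −0.89 on Y5 and −0.96 on Y10. RPN5 lay at 0.66 on G0, 0.11 on Y5 and −0.54 on Y10. Its Y10 minus G0 difference of −1.20 was the only one in the lid past 1 log2 unit.

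RPN4, the activator of proteasome genes, whose protein is short-lived, had a course of its own. It lay at −0.05 on G0, −0.99 on Y5 and 0.49 on Y10, percentiles 46.2, 6.71 and 86.1. RPN4 differed from G0 by −0.94 on Y5, or by −0.32 with sector centring. Its difference of 1.48 for Y10 minus Y5 was the only one of the 30 past 1 log2 unit in that comparison, where 3.77% of all genes were higher by at least 1. RPN14 stayed near the median, at 0.12 on G0, 0.13 on Y5 and −0.08 on Y10.

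Comparing Y5 with G0 put 30 of 34 genes below 0 (50.4% of all genes), with a median difference of −0.48, while the median over all genes was −0.01. At least 1 log2 unit lower on Y5 were 9 of 34 genes, 26.5%, and over all 5546 genes tested the share was 10.5%. They were 7 core genes (SCL1, PRE9, PRE5, PRE10, PRE3, PUP3 and PRE4) and 2 of the regulatory particle (RPT6 and RPN10). RPN2 alone was higher by at least 1 (4.02% of all genes). A difference from G0 holds the G0 level with its sign turned. When the difference was replaced by the residual of a straight line of Y5 on G0 over all genes, 1 of 34 genes was lower by at least 1 (2.94%), and 5.95% of all genes were.

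The comparison of Y10 with G0 shares the G0 array with the one above. Of 30 genes, 27 lay below 0 (51.9% of all genes), and the median difference was −0.55, against −0.04 over all genes. At least 1 lower on Y10 were 8 of 30, 26.7%, and 12.1% of all 4427 genes. They were PRE9, PUP2, PRE5, PRE10, PUP3 and PRE4 of the core and RPT6 and RPN5 of the regulatory particle. No member was higher by at least 1, while 6.51% of all genes were. With the residual of a line of Y10 on G0, 3 of 30 were lower by at least 1, against 5.24% of all genes. With the Y10 rows in their deposited numbering, where Y10 is unrelated to G0 across spots, the median Y10 minus G0 difference was still −0.91 for core genes and −0.57 for regulatory particle genes.

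**Figure D2:**
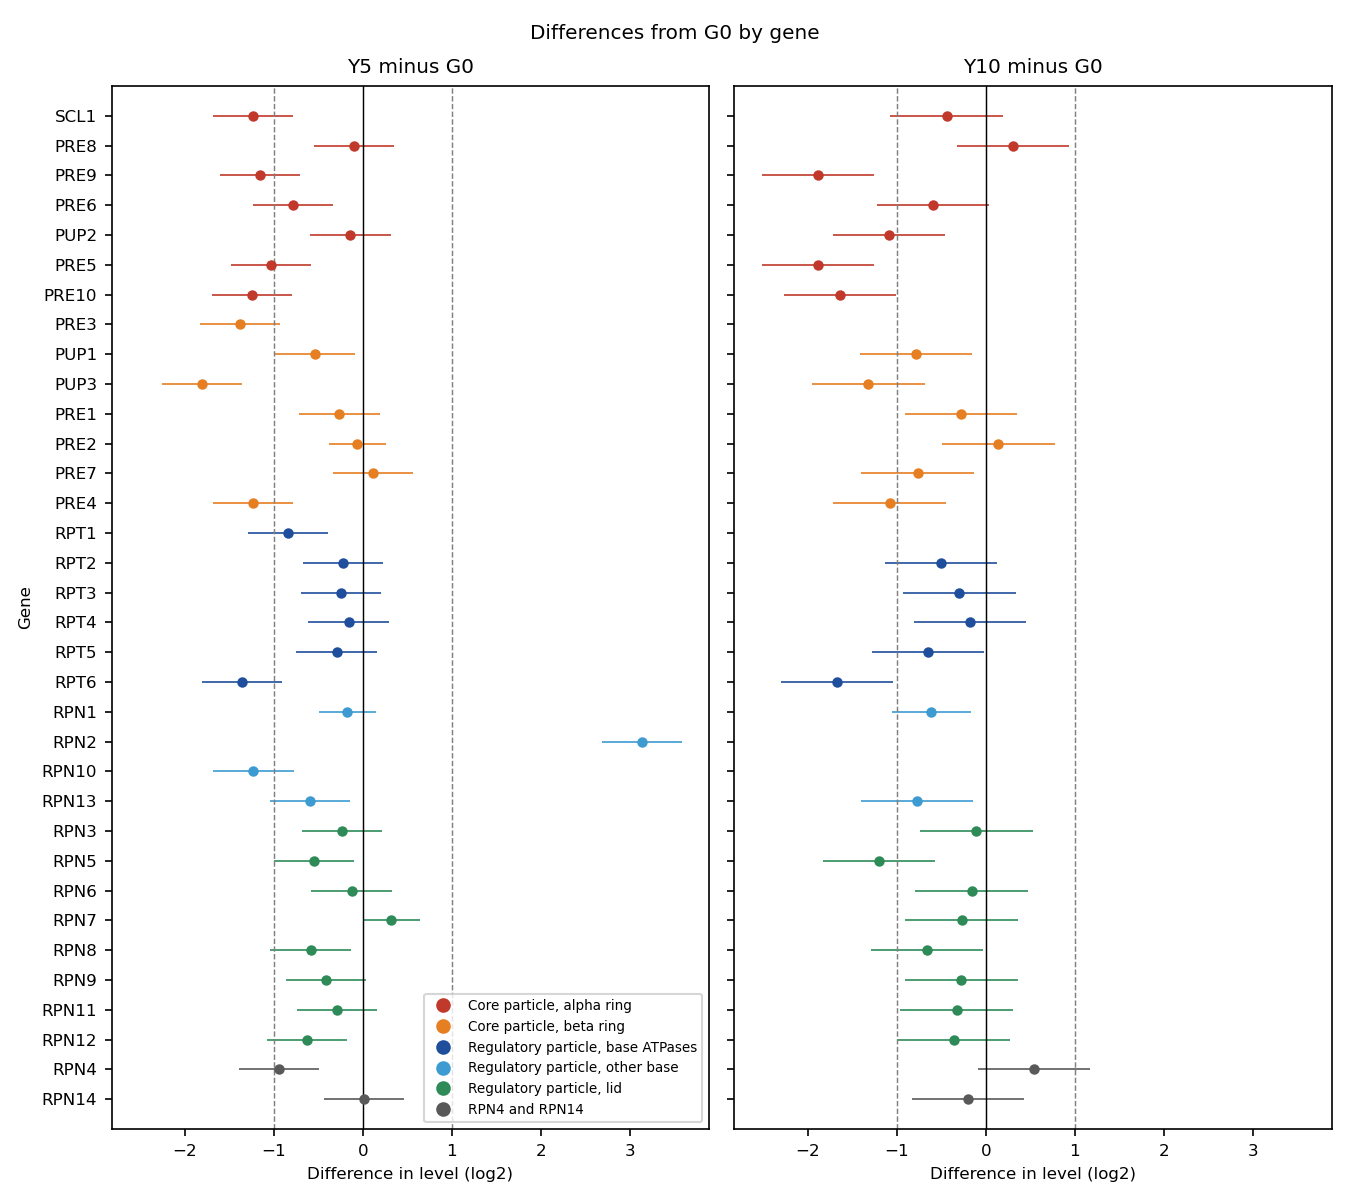
Difference in level from G0 (log2) for the 34 genes on Y5 (left) and the 30 with a value on Y10 (right), coloured by subcomplex. Bars are the SD between repeat spots, divided by the square root of the spots of the gene, and dashed lines mark 1 log2 unit in each direction. The core genes spread to the left, down to −1.81 on Y5 and −1.89 on Y10, and RPN2 stands alone at 3.13 on Y5.

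Between Y10 and Y5, a comparison that does not use G0, 20 of 30 genes lay below 0 (49.6% of all genes) with a median of −0.06. None was lower by at least 1, where 5.30% of all genes were. With the arrays scaled to one spread, 4 of 30 were, and 6.45% of all genes. PUP2 (−0.95), PRE7 (−0.88), PRE5 (−0.85) and PRE9 (−0.73) were the lowest, all of the core. SCL1 (0.80), PUP3 (0.49) and PRE8 (0.41), also of the core, were the highest after RPN4. The 15 regulatory particle genes covered a narrower range, from −0.65 to 0.27, with an SD over genes of 0.27, against 0.58 for the 13 core genes. The regulatory particle spread lay below the 0.559 between repeat spots and the core spread near it.

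The medians of core and regulatory particle genes were close on G0 and further apart on Y5. On G0 the median was 0.55 for the 14 core genes and 0.68 for the 18 regulatory particle genes, a difference of −0.13. On Y5 it was −0.38 for core genes and 0.01 for regulatory particle genes, a difference of −0.40. Sector centring made that Y5 difference −0.58, quantile normalization −0.28 and a line on gene length −0.24. Leaving out RPN2 made it −0.30. Restricting to genes with a value on all 3 arrays made it −0.29, against −0.14 for G0 over the same genes. The Y10 median was −0.31 for 13 core genes and −0.12 for 15 regulatory particle genes, a difference of −0.19. This Y10 difference was −0.44 with sector centring and −0.10 with a line on gene length. Of the core genes, 9 of 14 lay below the regulatory particle median on G0, 12 of 14 on Y5 and 11 of 13 on Y10. For Y5 minus G0, 9 of 14 did. The ranges overlapped on each array. As the members of 1 array are not replicates, they were not tested.

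Both differences from G0 gave the same order. For Y5 minus G0 the median was −0.91 for core genes and −0.30 for regulatory particle genes, a gap of −0.62. As residuals of the line of Y5 on G0 the medians were −0.56 for core genes and −0.11 for regulatory particle genes, a gap of −0.45. Among the core genes 7 of 14 were lower by at least 1, and 2 of 18 among the regulatory particle genes (10.5% of all genes). For Y10 minus G0 the median was −0.78 for core genes and −0.36 for regulatory particle genes, a gap of −0.42, with 6 of 13 and 2 of 15 lower by at least 1 (12.1% of all genes). As residuals of the line of Y10 on G0 the medians were −0.33 for core genes and −0.11 for regulatory particle genes, a gap of −0.22. The gap in differences was −0.35 with Y10 in its deposited numbering, under which Y10 values do not follow the genes. For Y10 minus Y5 the gap was 0.06.

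**Figure D3:**
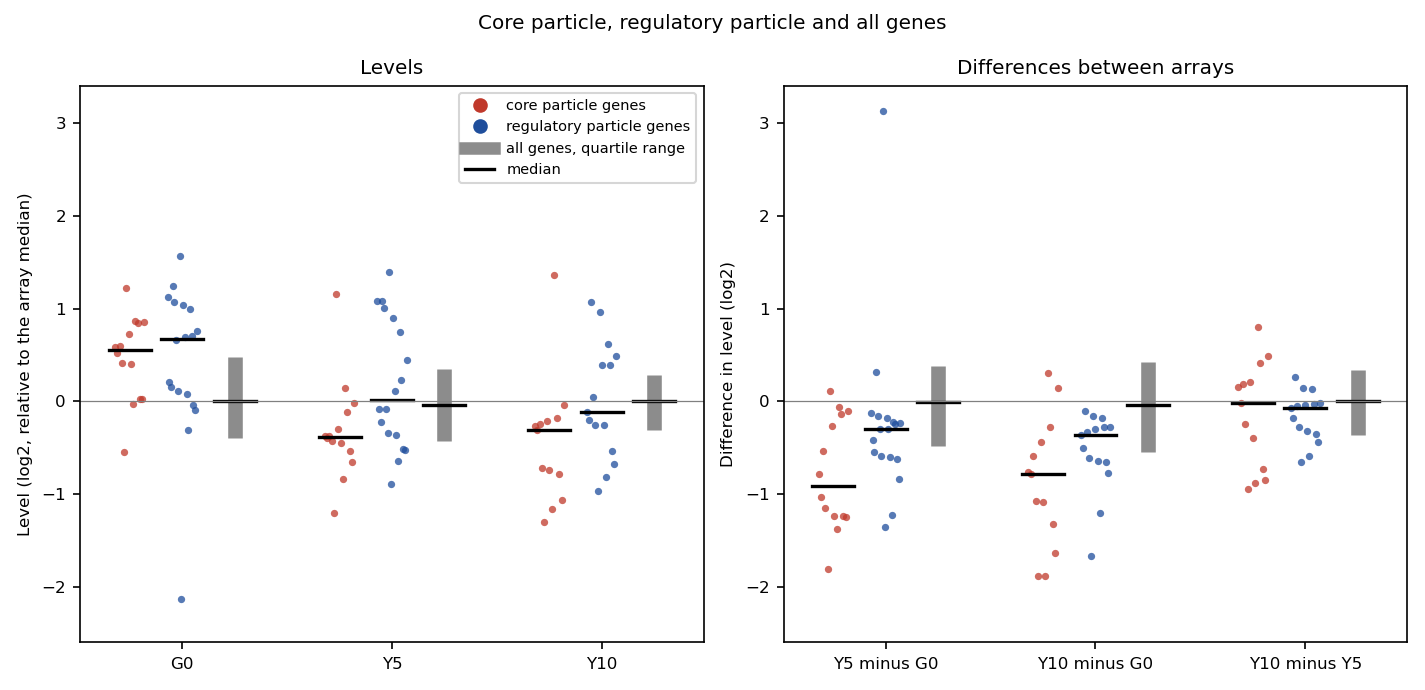
Levels on each array (left) and differences between arrays (right), in log2 units, for core particle genes, regulatory particle genes and the quartile range of all genes, with medians as black bars. Each point is 1 gene. On Y5, 12 of 14 core genes lie below the regulatory particle median, and 13 of 14 lie inside the regulatory particle range. The core median for Y5 minus G0 is −0.91, against −0.30 for the regulatory particle.

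In levels, the core median lay farther from the ATPase median than from the lid median on each array, G0 included. The core median stood below the ATPase median by a difference of −0.51 on G0, which was −0.98 on Y5 and −0.71 on Y10. Against the lid, the core median was higher on G0 (0.55 for core and 0.13 for lid) and lower on Y5 (−0.38 for core and −0.15 for lid) and Y10 (−0.31 for core and −0.23 for lid). On G0 the lid median was nearer 0 than those of the alpha ring, the beta ring, the ATPases and the other base genes. For Y5 minus G0 the medians were −0.91 (core), −0.27 (ATPases) and −0.35 (lid). For Y10 minus G0 they were −0.78 (core), −0.50 (ATPases) and −0.30 (lid), so there the core was nearer the ATPases.

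The regulatory particle genes were ordered similarly on Y10 and Y5, with r = 0.93 (Spearman rho = 0.91, 15 genes), and on Y5 and G0, with r = 0.80 once RPN2 was left out (17 genes, 0.27 with it). For core genes the values were r = 0.57 (rho = 0.14, 13 genes) and r = 0.28 (14 genes), and for all genes 0.57 (4435 genes) and 0.41 (5546 genes). These correlations are across genes, which share spots, labelling and array, and they are given as a description.

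Gene length moved with these levels. Over all genes the correlation between level and log2 gene length was r = 0.30 (G0), 0.45 (Y5) or 0.31 (Y10). Among the regulatory particle genes it was r = −0.05 on G0 (18 genes), 0.71 on Y5 (18 genes) and 0.62 on Y10 (15 genes). These include RPN2, 2838 bases long and the lowest on G0, except on Y10, where it has no value. By rank the regulatory particle gave rho = 0.34 (G0), 0.76 (Y5) and 0.57 (Y10), and all genes 0.32, 0.48 and 0.34. The core genes are short, 597 to 867 bases with a median of 764.5, and the regulatory particle genes longer, 471 to 2982 bases with a median of 1297.5, against 1261.5 for all genes. The lengths are those of the RefSeq R64 gene models and include introns where there are any.

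All genes in the length range of the core genes had a median level of −0.19 on G0 (817 genes), −0.34 on Y5 (819 genes) and −0.16 on Y10 (639 genes). The core genes therefore stood above genes of like length on G0, at 0.55, and close to them on Y5, at −0.38. Genes in the length range of the RPT genes, 1218 to 1404 bases, had medians of 0.01, 0.03 and 0.02 on G0, Y5 and Y10, below the RPT medians of 1.06, 0.59 and 0.39. With each array adjusted by a line on log2 length, an alternative chosen after seeing the data, core minus regulatory particle was 0.05 on G0 and −0.24 on Y5, and −0.52 for Y5 minus G0. The part of length in the levels was not tested further.

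**Figure D4:**
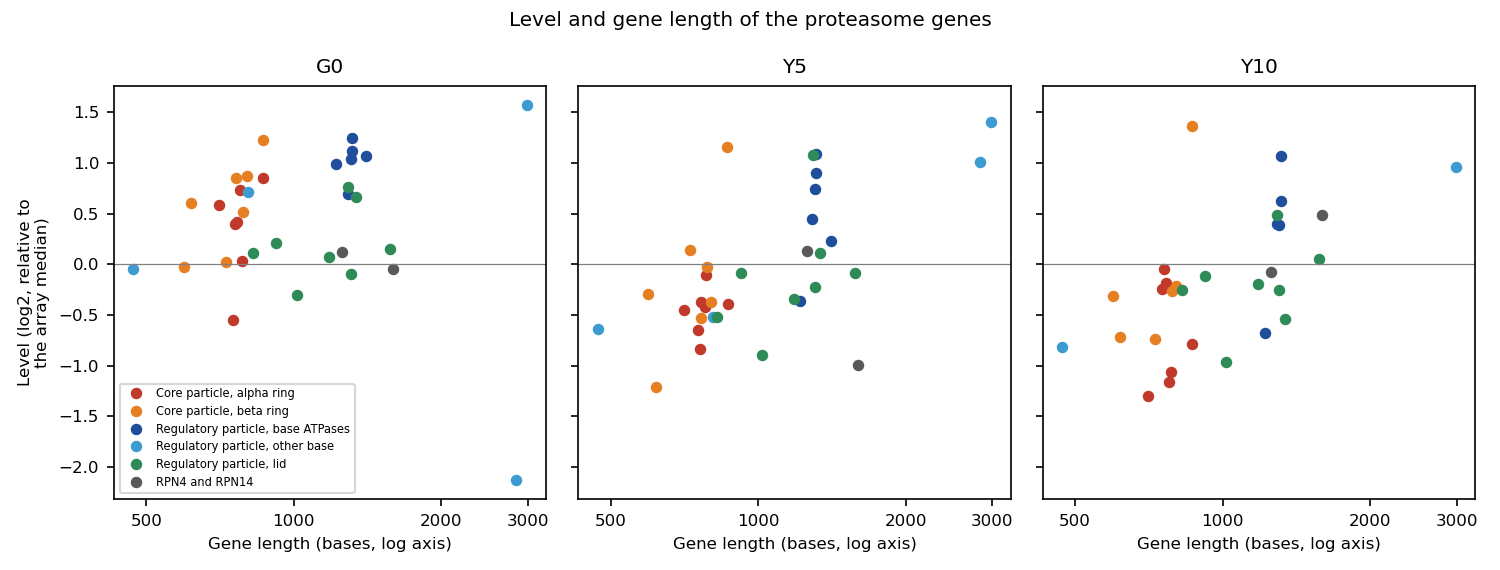
Level of each proteasome gene (log2, relative to the array median) against gene length in bases on a log axis, for the G0, Y5 and Y10 arrays. Points are coloured by subcomplex. On Y5 the short core genes, 597 to 867 bases, lie mostly below 0 and the longer RPT, RPN1, RPN2 and RPN7 genes mostly above.

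Other genes of the ubiquitin-proteasome system were taken from a list of enzymes, receptors and proteasome-associated proteins. Of 51 listed genes, 49 were measured on G0 and Y5, with median levels of 0.43 on G0 and 0.23 on Y5, and 42 on Y10, with 0.11. For Y5 minus G0, 9 of 49 were lower and 2 higher by at least 1 (10.5% and 4.02% of all genes), with a median of −0.13. For Y10 minus G0, 6 of 41 were lower and 1 higher (12.1% and 6.51% of all genes), with a median of −0.15. By role, those lower by at least 1 for Y5 minus G0 were 5 of 13 assembly and associated genes (38.5%), 2 of 28 ubiquitin and enzyme genes (7.14%) and 2 of 8 delivery genes (25%).

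UBC4, a main ubiquitin-conjugating enzyme for short-lived and abnormal proteins, was among the lowest in both comparisons. It lay at 1.82 on G0, 0.25 on Y5 and 0.24 on Y10, differing from G0 by −1.57 and −1.58. Both differences use the same 1 spot on G0. NAS6, an assembly chaperone of the base that binds Rpt3, was the lowest on Y5, at 0.50 on G0, −1.08 on Y5 and −0.13 on Y10. SPG5, a proteasome-associated protein of stationary phase, differed by −1.15 for Y10 minus G0. At the upper end, CIC1, a proteasome-interacting protein that also acts in ribosome assembly, lay at −0.76 on G0, 1.29 on Y5 and −0.06 on Y10. UBP1, a ubiquitin protease, was 1.49 higher on Y5 than on G0. For Y10 minus G0 the highest were UBC11 (1.02) and TOM1, a ubiquitin ligase (0.83). All these genes were named for being at the ends of the list, and each except TOM1 had 1 spot on G0.

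Other complexes of fixed subunits were set beside the proteasome. The vacuolar ATPase is the proton pump of the vacuole. Of its genes, 9 of 14 were lower by at least 1 for Y5 minus G0 (10.5% of all genes). The median difference of the 14 was −1.54, against −0.91 for the 14 core genes and −0.30 for the 18 regulatory particle genes. The vacuolar ATPase genes had a median level of 0.81 on G0, −0.99 on Y5 and −0.38 on Y10. All 8 genes of the cytosolic chaperonin, which folds actin and tubulin, were above the array median on G0 (0.31 to 1.63) and on Y5 (0.24 to 1.41). From G0 to Y5 that course resembled the 6 RPT genes more than the core genes. The medians for Y5 minus G0 were −0.38 for the chaperonin (range −1.23 to 0.65) and −0.27 for the RPT genes. Only 3 of 8 chaperonin genes had a Y10 value. Their Y10 minus G0 median was −0.99, nearer the core median of −0.78 than the RPT median of −0.50. These contrasts between lists were not tested.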

How the data were processed

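The deposited table gives 1 log2 ratio per spot for 8832 spots on 3 arrays. Base 2, centring and direction are assumptions, since no label or header used here states them, nor scanner, background correction, normalization or spot filter. The deposited column medians were 0.0735 (G0), 0.067 (Y5) and 0.071 (Y10).

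Of the spots, 6623 had 1 gene symbol, 0 several and 2209 none. All 5574 genes matched RefSeq R64 by gene identifier. No coordinates are given.

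Y10 rows follow 32 sectors of 252 rows instead of 276 spots. The first 192 rows of each were renumbered and used, 6008 with a value (4446 genes). The last 60 were an alternative, and 24 spots of each sector have no Y10 row. Each array was centred on its median over spots, the spots of a gene were averaged, and arrays were subtracted (Python 3.11.15, pandas 2.3.3, numpy 2.4.6). The renumbering and differences were tried on simulated data written in the assumed layout, with spot errors below those measured. That cannot show whether the deposited Y10 rows follow the layout. Calls are 1 log2 unit, with no test. All 34 members are named, and other pathway genes by the 2 highest and 2 lowest differences from G0. Members and lists were chosen with earlier results of these data known. A planned search of promoters for the Rpn4-bound element was not run, as no promoter sequence was used here. Alternatives covered centring, scaling, quantile normalization, sector centring, Y10 rows, genes and spots used, call size, a line on the earlier array, gene length, logarithm base and RPN2.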

Additional observations from a re-analysis of the deposited data

How the results depend on the processing

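No paired analysis was possible because each group was 1 array. Without replicates, a level or median was said to change with an alternative where it moved by more than the SD between repeat spots of 1 gene, and a count where it moved by over 1.5 times. The particle medians and gaps are also listed where their sign turned, however small the move. That SD is for 1 gene and is a wide limit for a median of many genes. The core minus regulatory particle gap for Y5 minus G0 stayed negative under every alternative run, and so did that for Y10 minus G0 except among genes with 2 or more spots. Several alternatives could not turn these signs. Changes to the Y10 rows do not touch Y5 minus G0, centring cancels in a gap, and the logarithm base only rescales it. With deposited Y10 rows, which do not follow the genes, the Y10 minus G0 gap was still −0.35. All values in the report are open to the spread between cultures and hybridisations, which 1 array per group cannot show, and depth is unknown.

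The cause of the following changes was not tested unless stated. Over genes with 2 or more spots, which leaves only PRE2 in the core and RPN1 and RPN7 in the regulatory particle, the G0, Y5 and Y10 medians were 1.22, 1.15 and 1.36 for the core, and 1.17, 1.24 and 0.73 for the regulatory particle. Core minus regulatory particle was then 0.053 on G0 and 0.64 on Y10. For Y5 minus G0 the core median was −0.065, the regulatory particle median 0.072 and the gap −0.14. For Y10 minus G0 the core median was 0.14 and the gap 0.58, for Y10 minus Y5 0.21 and 0.72, and the counts past 1 log2 unit were 0. With deposited Y10 row numbers, Y10 minus Y5 gave 0.10 for the core, 0.15 for the regulatory particle and −0.057 for the gap, with 2 members higher and 8 lower by at least 1. For Y10 minus G0 1 was higher, and the Y10 levels of PRE2 and RPT4 were −0.11 and −0.13.

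The Y10 minus Y5 gap, 0.06 as reported, was −0.002 with scaling, −0.027 with quantile normalization, −0.13 with a line on Y5 and −0.049 with a line on gene length. The regulatory particle median on Y5, 0.01 as reported, was −0.05 with quantile normalization and −0.081 over genes on all 3 arrays or without RPN2; on Y10 it was 0.028 with sector centring and 0.002 with a line on length. Core minus regulatory particle on G0 was 0.054 with that line. Members lower by at least 1 for Y10 minus Y5 numbered 4 with scaling or natural logarithms and 1 with quantile normalization, a line on Y5 or a line on length. With natural logarithms 2 were higher. Members higher by at least 1 numbered 0 for Y5 minus G0 without RPN2 or over genes on all 3 arrays, and 1 for Y10 minus G0 with sector centring or a line on G0. The line on G0 left 1 lower member on Y5 and 3 on Y10. At 1.5-fold, 15 were lower on Y5 than on G0 (20.8% of all genes), 15 on Y10 than on G0 (23.5%) and 6 on Y10 than on Y5 (14.8%), with 2 higher in the last (12.9%).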
